A study of Rattus norvegicus with 12 samples.

Results

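The insulin-like growth factor (IGF) axis was followed in 2 rat hepatic cell lines, GN5 and H5D, through 10 genes: Igf1, Igf2, Igf1r, Igf2r, Irs1, Igfbp2, Igfbp3, Igfbp4, Igfbp5 and Igfbp6. Every probe of a whole-transcriptome bead array that carried one of these names, current or former, was taken, whatever its signal. This gave 10 probes of 22523, for 9 of the 10 genes, out of 13337 named genes on the array. Igfbp4 had 2 probes and the other measured genes 1 each, and no probe carried the name Igf1 in the annotation used here, so that ligand was not analysed here. The arrays held 4 groups of 3: GN5 with rapamycin, GN5 with vehicle, H5D with rapamycin and H5D with vehicle. Rapamycin, which binds FKBP12 and inhibits the kinase mTOR, was added at 50 nM for 24 h, and the vehicle was dimethyl sulfoxide (DMSO). GN5 is a tumorigenic line made by chemical transformation of WB-F344, a non-tumorigenic rat liver epithelial line, and was grown in DMEM/F12. H5D is a tumorigenic line from a hepatocellular carcinoma that an azo dye had induced in a Fischer rat, and was grown in Waymouth medium. Both media contained fetal bovine serum. The half-maximal inhibitory concentration of rapamycin on DNA synthesis was reported as below 50 nM in GN5 and above it in H5D. Both lines were rated as intermediate in their response to rapamycin. Each stands for a single line grown in a medium of its own, so that line and medium cannot be told apart. The comparisons addressed how the axis was set up in each line, which of its genes responded to rapamycin, and whether the lines responded differently.

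IGF1 and IGF2 are secreted ligands that signal through the receptor tyrosine kinase IGF1R. The activated receptor phosphorylates docking proteins such as IRS1, which recruit PI3-kinase and lead to AKT and mTOR, and mTOR signaling in turn feeds back on IRS proteins. IGF2R, the cation-independent mannose 6-phosphate receptor, takes IGF2 to lysosomes for degradation and carries lysosomal enzymes, and has no kinase. The IGF binding proteins hold the ligands outside the cell, where proteases release them. In the rat, Igf2 is abundant in fetal liver and low in adult liver, where hepatocytes are the main source of circulating IGF1.

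Between 7427 and 8483 probes were detected on an array, that is, 33.0% to 37.7% of all, with a detection p of at most 0.01 against probes without target. The GN5 vehicle replicates 2 and 3 stood apart with median raw signals of 106 and 96.2, against 74.3 to 82.7 on the other 10 arrays. Results on GN5 were therefore also computed without these 2 arrays, a choice made after seeing the data, and are given so where a call was lost. Of 9 hepatocyte markers with a probe, transferrin (Tf) was detected on all 12 arrays and 8, among them Alb, Ttr and Hnf4a, on none, so that the hepatocyte identity of either line was not borne out by its defining markers. The summed linear signal of those 9 markers was 421 to 494 in GN5 with rapamycin, 372 to 429 in GN5 with vehicle, 3622 to 4754 in H5D with rapamycin and 2750 to 3053 in H5D with vehicle. The differences between these sums follow Tf alone, whose log2 means were 8.01, 7.66, 11.9 and 11.4 in the same order. Of 6 biliary or liver epithelial markers, Krt7 and Krt8 were detected on all 12 arrays, Spp1 on all but 1 GN5 vehicle array, Krt19 on the H5D arrays only, and Epcam and Cldn4 on none. Of 8 mesenchymal markers, 6 were detected on all GN5 arrays and 1 (Vim) on all H5D arrays; Col1a1, Col1a2, Col3a1, Lum and Dcn were on no H5D array.

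The members differed in where they were detected. Igf1r, Igf2r and Igfbp6 were detected on all 12 arrays. Igf2 and Igfbp2 were detected on all 6 GN5 arrays and on no H5D array, whereas Igfbp3 was detected on all 6 H5D arrays and on no GN5 array. Irs1 was detected on all GN5 arrays and all H5D rapamycin arrays, but on only 1 of 3 H5D vehicle arrays. Both Igfbp4 probes and the Igfbp5 probe were detected on no array. Signals below are on the log2 scale after background correction and quantile normalization, where undetected member probes lay between 4.35 and 5.30, and they are not compared between probes. The 3 arrays of a group were separate plates of cells, so that the p-values measure the spread between plates.

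**Figure D1:**
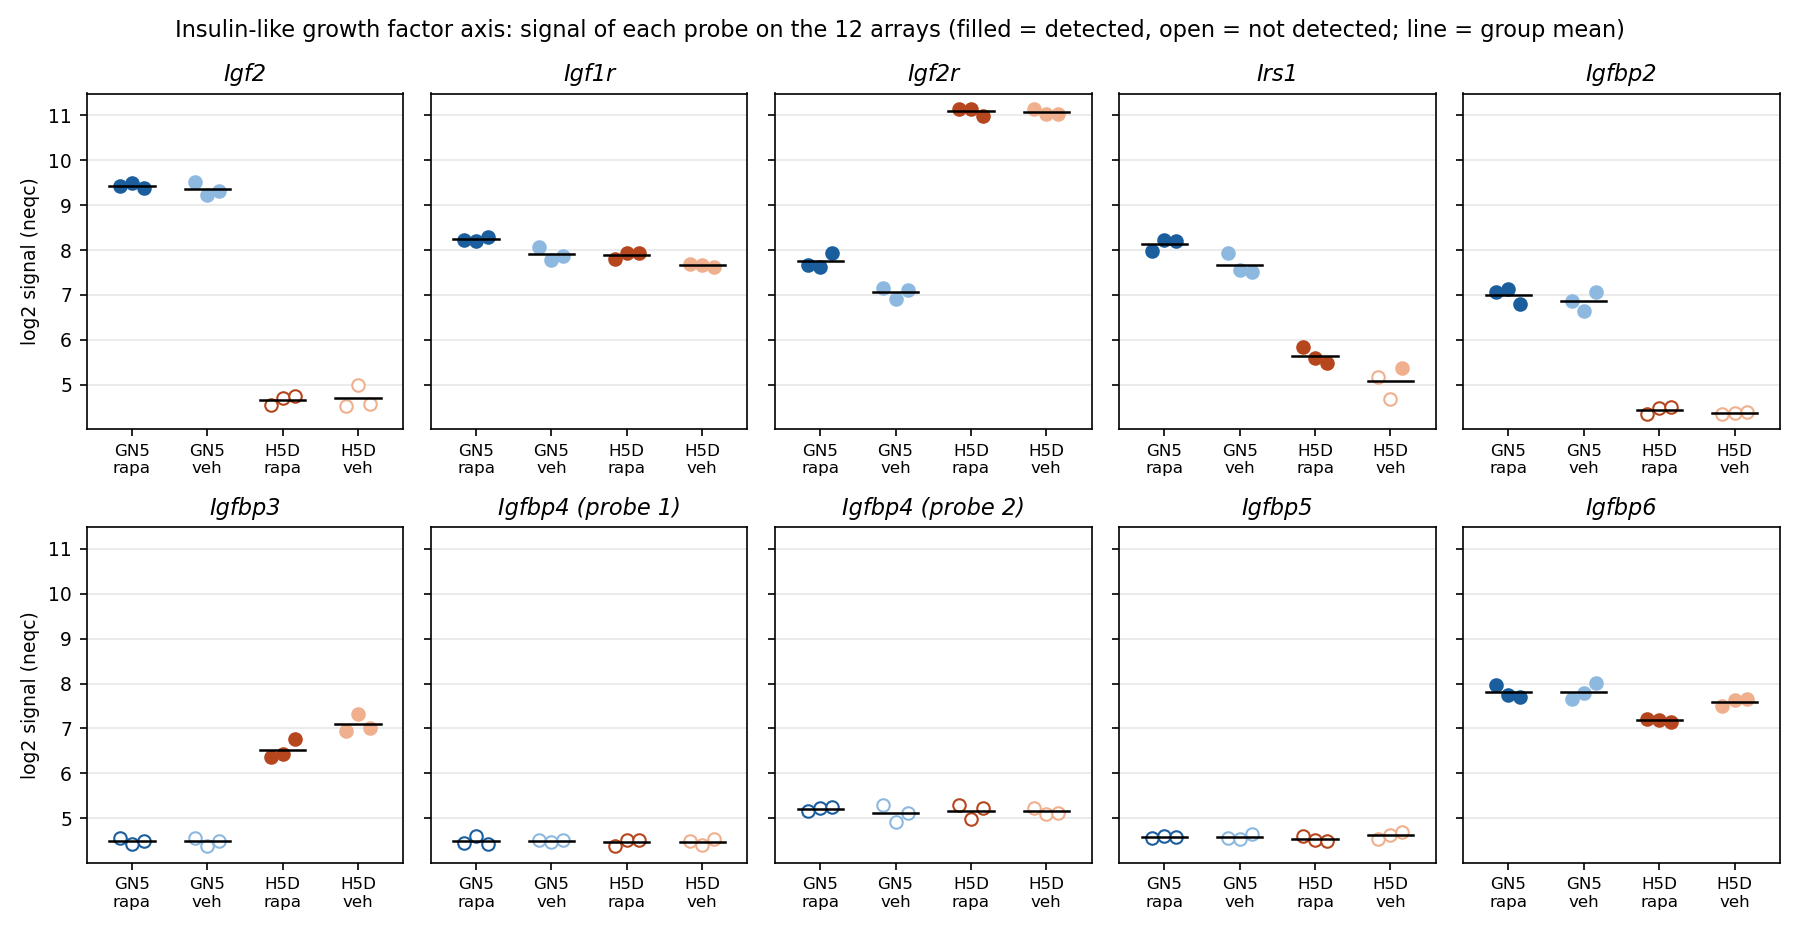
Log2 signal of the 10 member probes (vertical axis) on the 12 arrays, with GN5 rapamycin, GN5 vehicle, H5D rapamycin and H5D vehicle from left to right in each panel. Filled points are detected, open points are not detected, and the lines are group means. Igf2 and Igfbp2 were detected in GN5 alone, Igfbp3 in H5D alone, and Igf2r lay between 6.92 and 7.94 on the 6 GN5 arrays and between 10.98 and 11.15 on the 6 H5D arrays.

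Igf2, the fetal ligand of the axis, separated the lines. Its signal was 9.42, 9.49 and 9.39 in GN5 with rapamycin, against 9.52, 9.22 and 9.31 in GN5 with vehicle. In H5D it was 4.56, 4.70 and 4.76 with rapamycin and 4.52, 5.00 and 4.57 with vehicle, and none of these 6 values was above background. With rapamycin, Igf2 was at least 16.4-fold higher in GN5 than in H5D (adjusted p = 4.0e-13, limma), and with vehicle at least 16.1-fold higher (adjusted p = 4.3e-10). Here and below, "at least" sets the brighter group against the lowest detected signal of each dimmer array, on the background-corrected scale. Without background correction the differences were smaller than this bound, at 3.29 with rapamycin and 3.21 with vehicle on the log2 scale, both called. In GN5 the rapamycin and vehicle arrays overlapped, and the difference was 0.08 (95% interval -0.15 to 0.31, adjusted p = 0.68, n = 3 each). In bulk RNA, fewer cells that make a transcript and less transcript per cell cannot be told apart. Igf2 and Igfbp2 entered the comparisons of the lines only through the group where they were bright, as Igfbp3 did, so that their place among the calls follows from their detection.

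Igf2r, the clearance receptor for that ligand, had the opposite pattern between the lines. In GN5 it had the smallest adjusted p of the members for rapamycin against vehicle. In GN5 its signal was 7.68, 7.63 and 7.94 with rapamycin, against 7.15, 6.92 and 7.11 with vehicle, so that each rapamycin array lay above each vehicle array. In H5D it was 11.15, 11.14 and 10.98 with rapamycin, against 11.13, 11.04 and 11.04 with vehicle, and these arrays overlapped. Igf2r was thus 10.1-fold lower in GN5 than in H5D with rapamycin (log2 difference -3.34, SE 0.108, adjusted p = 2.99e-11) and 16.1-fold lower with vehicle (-4.01, SE 0.110, adjusted p = 1.53e-10).

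In GN5, rapamycin raised Igf2r 1.61-fold (log2 difference 0.69, SE 0.113, adjusted p = 0.0044, n = 3 each). In H5D the difference was 0.02 (95% interval -0.21 to 0.24, adjusted p = 0.95). The response of GN5 minus that of H5D was 0.67 (SE 0.150, adjusted p = 0.042), and Igf2r was the only member probe whose response was called as different between the lines. That was 1 of 7 member probes tested, against 1.41% of the 8539 probes tested for this difference. Of these 7, Igf2 and Igfbp2 were undetected on all H5D arrays and Igfbp3 on all GN5 arrays. Their responses were thus measurable in 1 line only, and the absence of a call does not show similar responses. Irs1 was detected on 1 of 3 H5D vehicle arrays. The rise in GN5 kept its call without any 1 of the 6 arrays, with values from 0.60 to 0.75, and lost it without both GN5 vehicle replicates 2 and 3 (0.60, adjusted p = 0.095). That fit, here and below, leaves 1 GN5 vehicle array, which is assumed to vary like the other groups, so that a call can be lost to precision alone. The difference between the lines was less firm: its call was lost without 10 of the 12 arrays in turn, was kept without GN5 vehicle replicate 1 or H5D vehicle replicate 2, and was lost without both GN5 vehicle replicates (0.58, adjusted p = 0.28). Scaling of the arrays to a common median in place of quantile normalization moved it to 0.42 (adjusted p = 0.23), and the call was also lost with a replicate block (adjusted p = 0.057) and without the detection filter (adjusted p = 0.058). Before correction and normalization, the Igf2r intensities were 217, 247 and 278 on the GN5 rapamycin arrays and 182, 223 and 217 on the GN5 vehicle arrays, which overlapped. The part of the higher raw signal of the 2 vehicle arrays in these results was not tested.

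Igf1r, the signaling receptor, was the most even of the 7 detected members across the 4 groups, with group means within 0.58 of each other. Its signal was 8.22, 8.21 and 8.30 in GN5 with rapamycin, against 8.07, 7.77 and 7.87 in GN5 with vehicle. In H5D it was 7.80, 7.94 and 7.93 with rapamycin, against 7.69, 7.68 and 7.61 with vehicle. In both lines each rapamycin array lay above each vehicle array, yet neither difference was called: 0.34 in GN5 (95% interval 0.11 to 0.57, adjusted p = 0.073) and 0.23 in H5D (0.01 to 0.44, adjusted p = 0.28). The GN5 difference passed the threshold in the fit of all 12 arrays (adjusted p = 0.045), in the methods' t-test (0.038; a two-sample test on the authors' values) and without GN5 vehicle replicate 1 (0.021). It was 0.18 (adjusted p = 0.58) without both GN5 vehicle replicates 2 and 3, which moved it by more than 1.5 times. Scaling to a common median gave 0.17 in GN5 and 0.45 in H5D, neither called. Before correction and normalization the GN5 intensities overlapped, at 290, 335 and 347 with rapamycin and 309, 355 and 327 with vehicle. Those of H5D did not overlap. Between the lines, Igf1r was 1.28-fold higher in GN5 than in H5D with rapamycin (0.36, SE 0.092, adjusted p = 0.0039). With vehicle the difference was 0.25 (95% interval -0.0047 to 0.49, adjusted p = 0.080), called in the fit of all 12 arrays (adjusted p = 0.033). The call with rapamycin was lost when arrays were scaled to a common median (0.08, adjusted p = 0.62). In the order of the group means, GN5 vehicle and H5D rapamycin stood next to each other and overlapped.

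Irs1, which docks PI3-kinase to the insulin and IGF1 receptors, was higher in GN5 and had the same sign with rapamycin in both lines. In GN5 its signal was 7.98, 8.23 and 8.20 with rapamycin, against 7.94, 7.57 and 7.51 with vehicle, with no overlap between the 2 sets of arrays. In H5D it was 5.83, 5.60 and 5.48 with rapamycin, against 5.17, 4.69 and 5.37 with vehicle, again without overlap, although this probe was near background in H5D and entered that comparison through its rapamycin arrays. Irs1 was 5.66-fold higher in GN5 than in H5D with rapamycin (2.50, SE 0.115, adjusted p = 8.91e-10). With vehicle, where 1 of 3 H5D arrays detected it and it passed the filter through GN5, it was at least 4.93-fold higher (adjusted p = 2.93e-07), with the other H5D arrays set at their lowest detected signal. With no background correction the difference was 1.68 with rapamycin and 1.56 with vehicle, both called.

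With rapamycin Irs1 rose 1.38-fold in GN5 (0.47, SE 0.127, adjusted p = 0.049), at the edge of the threshold. This call was kept without GN5 vehicle replicate 1 and lost without each of the other 5 arrays, with values of 0.39 to 0.60 over the 6 sets. It was 0.20 (adjusted p = 0.57) without both GN5 vehicle replicates 2 and 3. The call was also lost with scaling to a common median (0.32, adjusted p = 0.17), without the detection filter (adjusted p = 0.16), with a replicate block (0.094), in the fit of all 12 arrays (0.10) and in the methods' t-test (0.37, adjusted p = 0.054). Before correction and normalization the GN5 intensities overlapped, at 253, 340 and 326 with rapamycin and 284, 315 and 266 with vehicle. In H5D the difference was 0.56 (95% interval 0.17 to 0.95, adjusted p = 0.16) and was not called. It was 0.37 without H5D vehicle replicate 2, the array with the lowest of the 6 H5D values, which moved it by more than 1.5 times, and 0.26 on the authors' values. The responses of the lines differed by -0.10, GN5 minus H5D, with a 95% interval of -0.59 to 0.40.

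Igf1r, Igf2r and Irs1 are the 3 members above whose GN5 rapamycin arrays, after normalization, all lay above their vehicle arrays. They are shown by the 250 bases before their gene starts, as RefSeq gives them for the rat assembly GRCr8. The sequence upstream of these genes can thus be read beside their signals. Capitals mark matches, on either strand, to 4 short motifs. The GC box, the site of SP1-type factors, is spelled GGGCGG. The core that FOXO factors recognise is spelled GTAAACA. The E-box of bHLH factors such as MYC and TFEB is spelled CACGTG here, and the TATA box is TATAAA.
Igf1r promoter, chr1:130959747-130959996, plus strand: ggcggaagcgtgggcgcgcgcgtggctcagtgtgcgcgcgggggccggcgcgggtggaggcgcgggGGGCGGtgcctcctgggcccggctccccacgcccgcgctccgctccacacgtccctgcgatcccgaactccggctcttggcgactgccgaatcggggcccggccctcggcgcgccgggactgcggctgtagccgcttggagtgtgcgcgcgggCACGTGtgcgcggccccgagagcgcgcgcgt
Igf2r promoter, chr1:50526628-50526877, plus strand: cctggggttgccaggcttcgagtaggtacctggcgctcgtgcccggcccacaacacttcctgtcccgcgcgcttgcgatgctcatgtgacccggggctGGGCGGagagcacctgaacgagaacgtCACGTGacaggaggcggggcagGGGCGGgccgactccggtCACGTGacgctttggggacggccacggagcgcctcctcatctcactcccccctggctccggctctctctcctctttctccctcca
Irs1 promoter, chr9:91053960-91054209, minus strand: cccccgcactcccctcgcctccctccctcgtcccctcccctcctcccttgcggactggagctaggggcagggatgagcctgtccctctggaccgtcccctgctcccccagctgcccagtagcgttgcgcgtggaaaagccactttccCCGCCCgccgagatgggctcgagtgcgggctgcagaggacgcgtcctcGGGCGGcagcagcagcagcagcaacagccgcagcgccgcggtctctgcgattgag
Igf1r held 1 GC box and 1 E-box, Igf2r held 2 of each, and Irs1 held 2 GC boxes. None of the 3 held the FOXO core or the TATA box. Among the members not shown, Igfbp2, which was not called with rapamycin in GN5, also held 1 GC box and 1 E-box. The other members not shown held no E-box. Both Igf2r E-boxes lay in the same 10 letters, GTCACGTGAC, a motif picked after the sequence was seen, in which each match overlaps an E-box. Of 33469 rat promoters of this length, 30.5% held at least 1 GC box and 14.8% at least 2, 5.59% held at least 1 E-box and 0.43% at least 2, 3.21% held the FOXO core and 12.9% the TATA box. GTCACGTGAC was in 0.203% of them, and 3 promoters held it 2 times or more. The windows were rich in G and C, at 79.6% for Igf1r, 68% for Igf2r and 70.8% for Irs1. These are matches of letters only.

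The binding proteins divided between the lines. Igfbp2, which is abundant in fetal liver, had a signal of 7.07, 7.12 and 6.80 in GN5 with rapamycin, against 6.88, 6.65 and 7.07 in GN5 with vehicle. Those 2 groups overlapped, with a difference of 0.13 (95% interval -0.14 to 0.41, adjusted p = 0.56). In H5D all 6 values lay between 4.35 and 4.49 and none was detected, so Igfbp2 was at least 3.03-fold higher in GN5 than in H5D with rapamycin (adjusted p = 3.82e-10) and at least 2.87-fold higher with vehicle (adjusted p = 1.64e-08). Without background correction the differences were smaller than these bounds, at 1.48 with rapamycin and 1.49 with vehicle on the log2 scale, both called.

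Igfbp3, the main carrier of IGFs in serum, was the reverse. In GN5 its 6 values lay between 4.39 and 4.57, and none was detected. In H5D its signal was 6.36, 6.43 and 6.76 with rapamycin, against 6.94, 7.33 and 7.01 with vehicle, and each rapamycin array lay below each vehicle array. Igfbp3 was at least 1.95-fold lower in GN5 than in H5D with rapamycin (adjusted p = 6.83e-09) and at least 2.92-fold lower with vehicle (adjusted p = 1.46e-08). Without background correction Igfbp3 differed by -1.10 with rapamycin and by -1.49 with vehicle on the log2 scale, both called, the latter smaller than its bound. With rapamycin in H5D it differed by -0.58 (95% interval -0.90 to -0.25, adjusted p = 0.098), short of the threshold. It passed in the fit of all 12 arrays (adjusted p = 0.020) and did not in the methods' t-test (adjusted p = 0.057). The difference was -0.46 without H5D vehicle replicate 2, the brightest of the 6, and -0.37 with scaling to a common median.

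Igfbp6, a binding protein that prefers IGF2, was detected on all arrays. Its signal was 7.98, 7.76 and 7.71 in GN5 with rapamycin, against 7.66, 7.79 and 8.01 in GN5 with vehicle. In H5D it was 7.22, 7.18 and 7.13 with rapamycin, against 7.50, 7.63 and 7.66 with vehicle. The GN5 groups overlapped and differed by -0.01 (95% interval -0.27 to 0.25). The H5D rapamycin arrays all lay below the vehicle arrays, with a difference of -0.41 (95% interval -0.64 to -0.19, adjusted p = 0.088) that was not called, but passed in the fit of all 12 arrays (adjusted p = 0.049) and in the methods' t-test (-0.31, adjusted p = 0.019). With scaling to a common median it was -0.17 (adjusted p = 0.67). The H5D intensities overlapped before correction and normalization, at 217, 226 and 186 with rapamycin and 245, 211 and 238 with vehicle. Between the lines Igfbp6 was 1.55-fold higher in GN5 than in H5D with rapamycin (0.63, SE 0.101, adjusted p = 0.00011), or 0.34 with scaling to a common median (adjusted p = 0.034). With vehicle the difference was 0.23 (95% interval -0.04 to 0.50, adjusted p = 0.12), and the lowest GN5 array and the highest H5D array both read 7.66.

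Igfbp4, a binding protein that holds IGF signaling down in most settings, gave 4.42 to 4.62 in GN5 and 4.38 to 4.55 in H5D at its first probe, and 4.92 to 5.30 in GN5 and 4.98 to 5.30 in H5D at its second. The second probe came nearest to detection, with detection p values of 0.015 to 0.067 over the 12 arrays. Igfbp5 gave 4.54 to 4.66 in GN5 and 4.49 to 4.70 in H5D. Signals of these 3 probes were not detectable on these arrays, which sets no bound on the transcripts beyond that. In GRCr8 Igfbp5 is the direct neighbour of Igfbp2 on chromosome 9, and of this pair only Igfbp2 was detected in GN5 and neither in H5D. Igfbp3 stands in the same way beside Igfbp1 on chromosome 14, and both were detected in H5D and not in GN5. Igfbp1, a binding protein of hepatocytes that insulin holds down, was at least 4.20-fold lower in GN5 than in H5D with rapamycin (adjusted p = 2.3e-09) and at least 4.47-fold lower with vehicle (adjusted p = 2.82e-08).

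**Figure D2:**
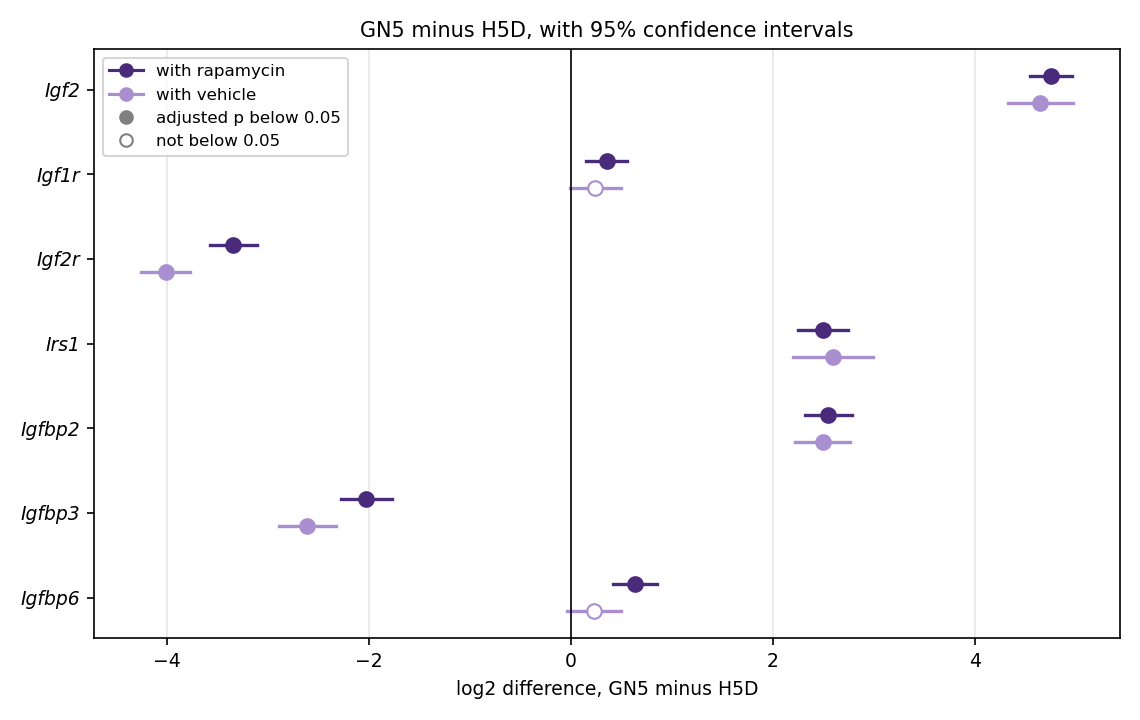
Log2 difference of GN5 minus H5D (horizontal axis) for the 7 tested member probes, with rapamycin above vehicle for each gene. Points are estimates and bars 95% confidence intervals, filled where the adjusted p was below 0.05; for Igf2, Igfbp2 and Igfbp3 the dimmer line was undetected, so their points are fitted values and no bounds, as is that of Irs1 with vehicle, detected on 1 of 3 H5D arrays. Igf2r lay at -3.34 with rapamycin and -4.01 with vehicle, and Irs1 at 2.50 with rapamycin.

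Counted over the members, the lines differed at 7 of 7 tested probes with rapamycin, 5 of them higher and 2 lower in GN5, where 72.2% of 8288 probes were called (38.1% higher and 34.1% lower). With vehicle, 5 of 7 were called, 3 higher and 2 lower in GN5, where 63.3% of 8279 probes were called (32.3% higher and 31% lower). The arrays of the lines did not overlap at 7 of 7 member probes in either comparison, against 74.1% of all tested probes with rapamycin and 67.1% with vehicle. The lines thus differed at most probes of the array, and the count of members is read against that. The 5 calls with vehicle were kept without GN5 vehicle replicates 2 and 3, and the differences of the other 2 tested members moved by more than 1.5 times, Igf1r to 0.41 (adjusted p = 0.070) and Igfbp6 to 0.07 (adjusted p = 0.77). With rapamycin 3 of the 7 probes, Igf2, Igfbp2 and Igfbp3, passed the detection filter through 1 line only, and with vehicle 4, Irs1 being the other.

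For rapamycin in GN5, 2 of 6 tested member probes were called, both higher (Igf2r and Irs1), against 6.91% of 7449 probes called and 3.45% called higher. Rapamycin and vehicle arrays did not overlap at 3 of the 6, against 27.8% of all tested probes. The median difference of the 6 was 0.24, and that of all tested probes 0.01. In H5D, 0 of 5 tested member probes were called by limma, against 0.722% of 7895 probes. Of these 5, 4 had an unadjusted p below 0.05 (Igf1r and Irs1 with positive differences, Igfbp3 and Igfbp6 with negative ones), against 16.7% of all tested probes. The same 4 did not overlap between the treatments, against 23.1% of all tested probes. Irs1 is among these 4 and passed the detection filter through its rapamycin arrays only. With the undetected vehicle arrays set at their lowest detected signal, its difference was 0.27 on the log2 scale. The methods' t-test called 1 (Igfbp6), and the fit of all 12 arrays called 2 (Igfbp3 and Igfbp6). The median of the 5 was 0.02, and that of all tested probes -0.01.

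**Figure D3:**
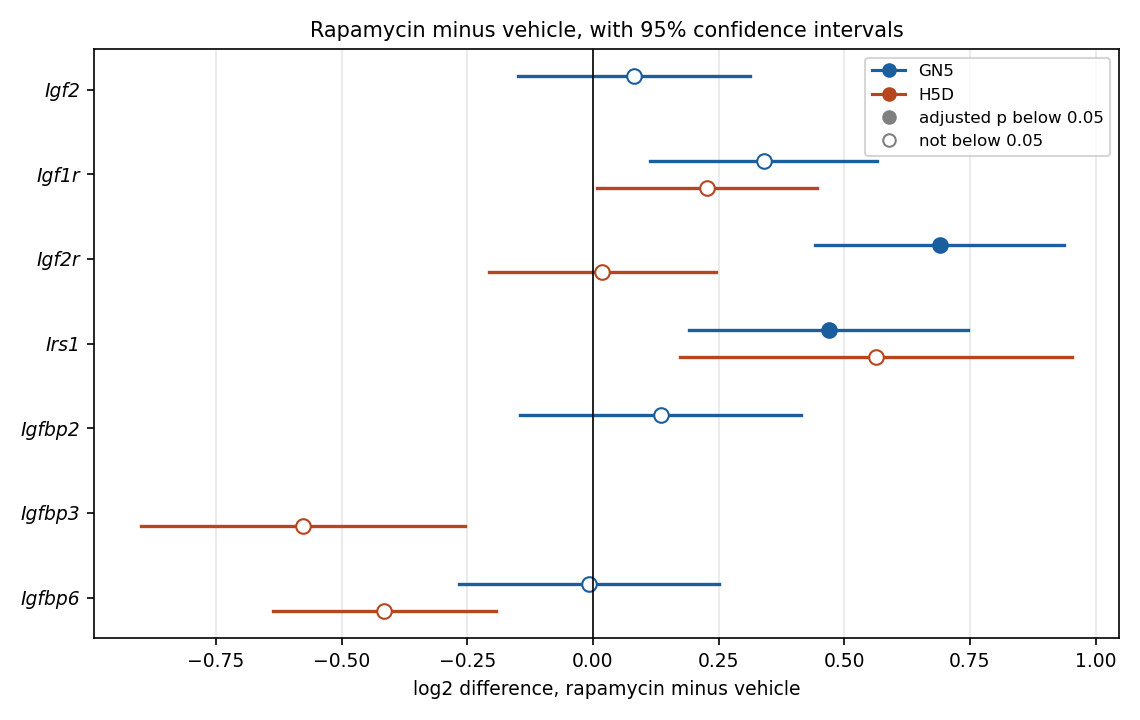
Log2 difference of rapamycin minus vehicle (horizontal axis) for the member probes tested in at least 1 line, with GN5 above H5D for each gene. Points are estimates and bars 95% confidence intervals, filled where the adjusted p was below 0.05. The filled points are Igf2r (0.69) and Irs1 (0.47) in GN5. Igf2 and Igfbp2 were not tested in H5D, and Igfbp3 was not tested in GN5. Irs1 in H5D, detected on 1 of 3 vehicle arrays, is a fitted value and no bound.

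Around the members, the other ligands, binding proteins and receptors of the family were mostly undetected. Of 8 such genes with a probe, Ins1, Ins2, Insrr, Igfals and Igfbpl1 were detected on no array and the insulin receptor Insr on 1 array, in H5D with rapamycin. Igfbp7, a secreted protein that binds IGFs weakly, was detected on all 12 arrays. In GN5 its signal was 7.67, 7.75 and 7.92 with rapamycin, against 7.47, 7.38 and 7.06 with vehicle. Igfbp7 rose 1.39-fold with rapamycin in GN5 (0.47, adjusted p = 0.042), a call kept without 1 of the 6 arrays left out in turn and lost without the other 5 (adjusted p up to 0.16). In H5D it was 10.14, 9.87 and 9.94 with rapamycin, against 9.45, 9.57 and 9.24 with vehicle, a difference of 0.56 that was not called (adjusted p = 0.080). Igfbp7 was lower in GN5 than in H5D both with rapamycin (-2.21, adjusted p = 1.62e-09) and with vehicle (-2.12, adjusted p = 1.83e-07).

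Downstream of Irs1, in the PI3K and AKT arm, 1 of 12 tested genes rose and 1 fell with rapamycin in GN5, and none of 11 was called in H5D. The counts of this and the following lists stand against 6.91% of all tested probes called in GN5 and 0.722% in H5D. Eif4ebp1, which encodes the translation repressor 4E-BP1, a direct substrate of mTOR, fell by 0.83 in GN5 (adjusted p = 0.0017). That call was kept without any 1 array, and the response was lower in GN5 than in H5D (-0.74, adjusted p = 0.042). The call on the difference was kept without 2 of 12 arrays only. Akt2, which encodes an AKT kinase, rose by 0.54 in GN5 (adjusted p = 0.048) from a signal detected on 1 of 3 vehicle arrays, and kept its call without 1 of 6 arrays only. The median over the arm was 0.05 in GN5 and -0.09 in H5D. Of 5 tested MAPK arm genes, none was called in either line.

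Among the receptor adaptors, 1 of 8 tested genes rose in GN5 and none of 8 was called in H5D. The one was Sh2b2, an adaptor of insulin and IGF1 receptors, with 0.53 (adjusted p = 0.012), kept without 3 of 6 arrays. Between the lines 3 of 9 adaptors were higher and 5 lower in GN5 with rapamycin, where 72.2% of all probes were called, and 2 were higher and 5 lower with vehicle, where 63.3% were. Grb7, an adaptor of receptor tyrosine kinases, was at least 5.76-fold lower in GN5 with vehicle (adjusted p = 8.61e-10), where it was undetected. Sh2b3 (-2.45) and Shc1 (-1.71), which links receptors to RAS, were lower in GN5 with vehicle too, and Shc3 was at least 3.59-fold higher. These calls hold for line and medium together.

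Of 8 tested negative regulators of the receptors, 1 fell in GN5 and none was called in H5D. That gene was Trib3, an AKT-binding pseudokinase, at least 2.34-fold lower with rapamycin (adjusted p = 6.19e-05) and undetected on the 3 rapamycin arrays. The response of Trib3 was also called lower in GN5 than in H5D (-1.22, adjusted p = 0.0080), but the probe was undetected on all H5D arrays, so that its H5D response was not measurable. Between the lines with vehicle, 4 of 8 were higher and 3 lower in GN5, where 63.3% of all tested probes were called. Among the higher ones Ptpn1, a phosphatase of the insulin and IGF1 receptors, differed by 1.47 on the log2 scale (adjusted p = 2.18e-06, limma).

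Proteases that cleave binding proteins, and their inhibitors, gave 1 rise among 10 tested genes in GN5 and 2 rises among 12 in H5D. In GN5 Mmp14, a membrane-bound matrix metalloproteinase, rose by 0.36 (adjusted p = 0.047), kept without 1 of 6 arrays. In H5D, where Igfbp3 was detected, Mmp3 (stromelysin) rose by 1.03 (adjusted p = 0.021) and Htra1, a secreted serine protease that cleaves binding proteins, by 0.54 (adjusted p = 0.044). The Mmp3 call was kept without 1 of 6 arrays and the Htra1 call was lost without each of the 6. Mmp3 was undetected on all GN5 arrays and at least 6.26-fold lower in GN5 than in H5D with vehicle (adjusted p = 1.26e-09), so its called difference in response (-1.09, adjusted p = 0.0069) sets H5D against a signal at background. In the other direction Plat, tissue plasminogen activator, was higher in GN5 with vehicle (4.92, adjusted p = 1.03e-10). Of 13 tested proteases and inhibitors with vehicle, 6 were higher and 7 lower in GN5. Of all probes tested there, 63.3% were called (32.3% higher and 31% lower).

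Genes that FOXO factors or insulin control gave 2 rises and 1 fall among 8 tested genes in GN5 and no call among 8 in H5D. Txnip, an inhibitor of thioredoxin and of glucose uptake, rose by 0.58 (adjusted p = 0.0077), and Ccng2, a FOXO target that slows the cell cycle, by 0.48 (adjusted p = 0.035). In GN5, Ccng2 was detected on 2 of 3 vehicle arrays and passed the filter through its rapamycin arrays. Srebf1, the lipogenic transcription factor that insulin induces, fell by 0.50 (adjusted p = 0.019). Without 1 array in turn, the calls were kept for 5 of 6 arrays (Txnip), 2 of 6 (Ccng2) and 2 of 6 (Srebf1). Of the genes around Igf2 mRNA and growth hormone, none of 2 in GN5 and none of 3 in H5D was called with rapamycin. Igf2bp1, which binds Igf2 mRNA, was at least 1.96-fold lower in GN5 than in H5D with vehicle (adjusted p = 8.38e-06) and undetected in GN5, the line with the Igf2 signal. Of the 5 tested genes that work with Igf2r in mannose 6-phosphate transport, none was called with rapamycin in either line. Between the lines 3 of the 5 were higher in GN5 with rapamycin, namely Gga3 (0.46), Gnptg (0.36) and Gga2 (0.35), and 1 was lower (Gga1, -0.28). In that comparison 72.2% of all tested probes were called. With vehicle only Gga1 was called (-0.28), where 63.3% of all tested probes were. The 3 higher calls with rapamycin were lost with scaling to a common median (0.07 to 0.16), as was that of Gga1 with vehicle (-0.15).

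Without both GN5 vehicle replicates 2 and 3, with 1 vehicle array left, Eif4ebp1 and Trib3 kept their calls in GN5, and the other 7 of the 9 genes of these lists lost theirs (adjusted p of 0.090 to 0.62). The differences of Sh2b2 (0.58), Srebf1 (-0.55), Txnip (0.44), Ccng2 (0.34) and Mmp14 (0.33) moved by less than 1.5 times. Those of Igfbp7 (0.31) and Akt2 (0.17) moved by more. The differences in response of Eif4ebp1 (-0.79), Trib3 (-1.14) and Mmp3 (-1.14) were then not called either (adjusted p of 0.083 to 0.21).

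**Figure D4:**
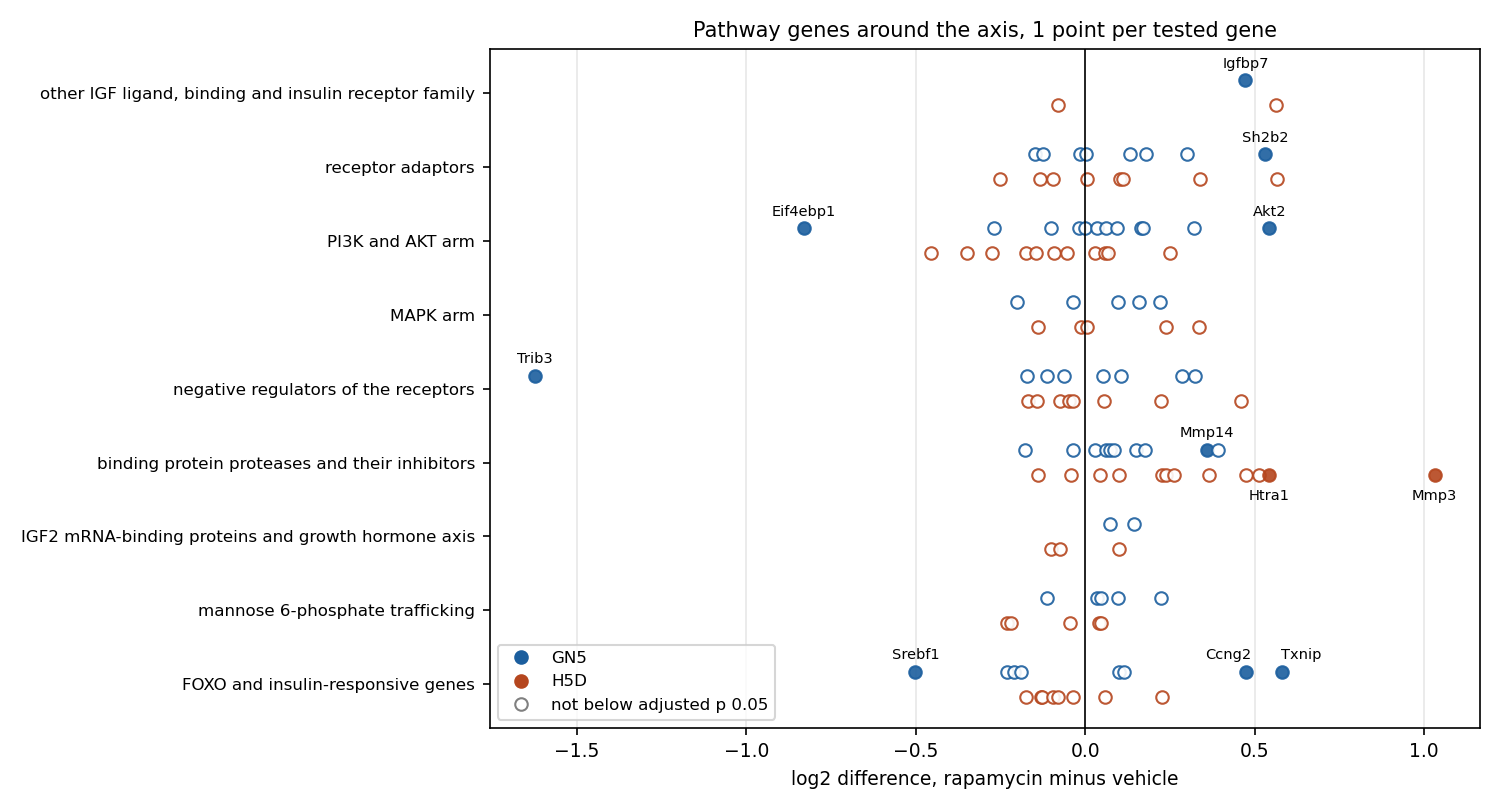
Log2 difference of rapamycin minus vehicle (horizontal axis) for each tested gene of the 9 lists around the axis, 1 point per gene, with GN5 above H5D in each list. Filled points have an adjusted p below 0.05 and are named. In GN5 the lowest points are Trib3, whose point is a fitted value, and Eif4ebp1 (-0.83); in H5D the filled points are Mmp3 (1.03) and Htra1 (0.54).

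Among mesenchymal markers, 3 of 6 tested in GN5 were called with rapamycin. Col1a1 (-0.75, adjusted p = 0.0046), Lum (-0.71, adjusted p = 0.0030) and Dcn (-0.67, adjusted p = 0.0036) fell with rapamycin, and Vim, Col1a2 and Col3a1 were not called. Without GN5 vehicle replicates 2 and 3 the calls of Lum (-0.84, adjusted p = 0.028) and Dcn (-0.81, adjusted p = 0.021) were kept and that of Col1a1 was lost (-0.57, adjusted p = 0.13). The summed linear signal of the 8 markers with a probe was 20110 to 22410 in GN5 with rapamycin, 20210 to 26630 in GN5 with vehicle, 8935 to 9586 in H5D with rapamycin and 7294 to 10480 in H5D with vehicle. The part of these markers in the members' results was not tested.

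The patterns most like those of Igf2, Igf2r and Irs1, the 3 members with the widest range of group means, were looked up by Pearson correlation of log2 signals over the 12 arrays among 6420 probes. Since the arrays form 1 cluster per line, these values mostly rank the difference between the lines and are given as a description. Igf2 was nearest to Gpc3, a cell surface glypican (r = 0.9992, with 0.505 within the 6 GN5 arrays), Fmod (0.9989) and Plod2 (0.9988). Igf2r was nearest to Fam3c (0.9968), Patz1 (0.9964) and Ptgs2 (0.9962), with 0.949, 0.925 and 0.864 within GN5, but -0.301, 0.373 and 0.977 within H5D. Irs1 was nearest to Rarb (0.995, with the other Rarb probe detected on no array), Agrn (0.9942) and St3gal2 (0.9917). For these 3, r was 0.926, 0.888 and 0.80 within the GN5 arrays and 0.972, 0.955 and 0.964 within the H5D arrays. In H5D, Irs1 was near background, and Irs1 and these 3 genes were all lowest on vehicle replicate 2 and highest on rapamycin replicate 1. Gpc3 shared the detection pattern of Igf2, at 10.96 to 11.22 in GN5 with rapamycin, 10.76 to 10.80 in GN5 with vehicle and undetected in H5D.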

How the data were processed

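Gene expression in 12 plates of cells was measured on RatRef-12 Expression BeadChips, with groups and replicate numbers taken from the sample titles. The deposited bead table held linear signal intensity and a detection p-value per probe, neither background subtracted nor normalized, per the file headers. A second table held the authors' quantile normalized intensities of the same arrays, used here as an alternative. The submitters' processing notes name BeadStudio, with no version, and Partek 6.3.

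Intensities were background corrected with neqc (normexp from detection p, offset 16) in limma 3.58.1 (R 4.3.3), which also applied quantile normalization across the 12 arrays and took log2. Of 22523 probes, 13793 had 1 gene symbol, 0 had several and 8730 had none. A probe was tested if its detection p was at most 0.01 on all 3 arrays of at least 1 group compared. Models used lmFit and eBayes, two-sided, on the 6 arrays of the groups compared, or on all 12 for the difference of the responses. P-values were adjusted over all tested probes by Benjamini-Hochberg, and a probe was called below 0.05. A gene with several probes was represented in list counts by its brightest one, while each member probe was given on its own. Named genes were all members, up to 4 called genes per list and comparison, by size of change, and the 3 nearest by correlation, beside marker genes and undetected family genes. Members and lists were chosen with earlier results of these data known. The methods' t-test was a two-sample test on the authors' log2 values, after the detection filter and a fold of at least 1.2. Its p-values were adjusted only over the probes left, 860 of 7449 in GN5 and 763 of 7895 in H5D with rapamycin against vehicle. They are therefore not comparable with the adjusted p-values of limma. The steps were tested on simulated data. The 3 arrays per group limit the precision.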

Additional observations from a re-analysis of the deposited data

Results flagged for a closer look

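The response of Igf2r to rapamycin differed between the lines by the interaction test: 0.67 on the log2 scale, GN5 minus H5D (adjusted p = 0.042, limma, 12 arrays), with 0.69 in GN5 and 0.02 in H5D. In GN5, 3 of 3 rapamycin arrays lay above the vehicle arrays, and in H5D the treatments overlapped. The call was lost with scaling to a common median (0.42, adjusted p = 0.23), with a replicate block (0.057), without the detection filter (0.058), without 10 of the 12 arrays in turn and without both GN5 vehicle replicates 2 and 3 (0.58, adjusted p = 0.28).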

How the results depend on the processing

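Of 456 member values recomputed under the alternatives, 399 kept direction and side of the threshold, 27 fell short of it, 7 passed it and 23 changed sign, none of which had been called; causes were not tested. Igf2r in GN5 kept its call under each of these settings except the removal of both GN5 vehicle replicates 2 and 3.

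Calls in GN5 (515, 2 of them members) were 857 with scaling to a common median (1 member), 233 without the filter, where more probes were tested (1), 330 with the replicate block (1) and 93 without GN5 vehicle replicates 2 and 3 together (0). Calls in H5D (57, no member) were 164 with scaling, 87 with the authors' values, 92 without background correction, 31 without the filter, 15 with the block, 290 with all 12 arrays in 1 fit (2 members) and 353 with the methods' t-test (1). Calls on the difference (120, 1 member) were 252 with scaling and 14 without the 2 GN5 vehicle arrays, and the member call was lost (0) there, without the filter and with the block. Leaving out 1 array gave 167 to 967 calls in GN5 (1 to 3 members; 167 without vehicle replicate 2, 967 without vehicle replicate 1), 0 to 42 in H5D (0 members; 0 without rapamycin replicate 2), 4714 to 5366 between the lines with vehicle (5 members), 5517 to 5967 with rapamycin (7) and 58 to 134 for the difference (0 to 1).

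Scaling moved the median of all tested probes to -0.14 in GN5, 0.17 in H5D, -0.17 and 0.10 between the lines with rapamycin and vehicle, and -0.29 for the difference. Higher and lower calls were then 103 and 754 in GN5 (257 and 258 with quantile), 156 and 8 in H5D (25 and 32), 1855 and 3504 between the lines with rapamycin (3160 and 2828), and 16 and 236 for the difference (63 and 57).

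The signs that turned were, in GN5, Igf2 with scaling (-0.11) and without both vehicle arrays (-0.093), and Igfbp6 without rapamycin replicate 2 or 3 or vehicle replicate 3 (0.021, 0.045 and 0.088; -0.091 to 0.088 over single arrays left out) or both vehicle arrays (0.15). In H5D Igf2r turned without rapamycin replicate 1 (-0.010) or 2 (-0.009), in a range of -0.010 to 0.075. For the difference, Igf2 was -0.076 with scaling, -0.067 without both GN5 vehicle arrays and -0.042 to 0.19 without single arrays (-0.042 without H5D vehicle replicate 2). Igf1r was -0.28 with scaling and -0.049 without both. Igfbp2 was -0.023 with scaling, -0.012 with the authors' values, -0.011 without background correction and -0.047 to 0.16 without single arrays (below 0 without GN5 rapamycin replicate 2 or vehicle replicate 2). Irs1 was 0.11 with the authors' values, 0.12 without background correction and -0.24 to 0.10 without single arrays (above 0 without GN5 vehicle replicate 1, H5D rapamycin replicate 1 or H5D vehicle replicate 2). The Igf2 and Igfbp2 probes were undetected in H5D, so that their differences set GN5 against a signal at background.

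Replicate numbers did not pair the arrays: deviations of same-numbered arrays correlated at -0.17, 0.11 and -0.22 in GN5, at 0.20, 0.01 and -0.37 in H5D, at -0.11, -0.04 and -0.08 between the lines with rapamycin and at 0.30, 0.22 and -0.18 with vehicle. Slide as a block was not run, since the file headers name no slide. The methods' t-test gave no value to members whose fold was under 1.2. Depth on arrays is signal over background, which limits Irs1 in H5D and the undetected probes.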
